A study of Homo sapiens with 4 samples.

Results

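Epithelial-mesenchymal transition (EMT) genes were examined in colorectal cancer cells with and without knockdown of SHMT2, the mitochondrial serine hydroxymethyltransferase. The 10 genes are the transcription factors ZEB1, ZEB2, SNAI1, SNAI2 and GRHL2, the mesenchymal markers VIM, FN1 and CDH2, and the epithelial markers CDH1 and EPCAM. They were taken by symbol from the deposited count table and make up 10 of its 26364 rows; the choice was made with earlier results of these data known. All 10 symbols were found, and 8 of the 10 passed the filter on low counts, as did 14024 of all rows. ZEB2 and CDH2 did not pass and are given by their counts.

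RNA was sequenced from SW480 and SW620 cells, established human colorectal cancer lines. SW480 was derived from a primary colon tumour and SW620 from a lymph node metastasis of the same patient. Each line gave 1 library labelled SHMT2 knockdown and 1 labelled control, 4 libraries in all. The study's methods describe shRNA against SHMT2 under doxycycline control. Which hairpin the sequenced cells carried, and whether the control cells received doxycycline, was not given in the sources used here. Nothing in the labels describes further cultures, so p-values measure only the spread between these libraries, taken mostly over all tested genes together.

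EMT is the change by which epithelial cells give up cell-cell junctions and apical-basal polarity and take on a motile, mesenchymal form. ZEB and SNAI proteins are zinc finger repressors that bind E-box sequences in the promoters of epithelial genes, CDH1 among them. GRHL2 works in the opposite direction: it activates CDH1 and other junction genes and represses ZEB1. In many carcinomas cells hold a mixed state, with E-cadherin and vimentin in the same culture.

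Promoter windows are shown for 3 of the genes that the comparisons below turn on. VIM had the largest difference in favour of SW620, FN1 fell with knockdown, and ZEB1 carries E-box letters of the kind that ZEB and SNAI proteins recognise. The RefSeq promoter table (GRCh38.p14) held windows for 5 of the 10 genes: 7 start sites of ZEB1, 2 of CDH2, and 1 each of ZEB2, VIM and FN1. SNAI1, SNAI2, CDH1, EPCAM and GRHL2 had none there. Each window holds the 250 bases upstream of a start site, printed 5′ to 3′ on the strand of the gene. Capitals mark the letters found by a search on both strands for the E-box letters CAGGTG, the cAMP response element TGACGTCA, the AP-1 site TGAGTCA, the grainyhead motif AACCGGTT, the so-called GC box with letters GGGCGG, and the TATA box with letters TATAAA. Where matches overlap, the capitals run together.
VIM, chr10:17227991-17228240, plus strand: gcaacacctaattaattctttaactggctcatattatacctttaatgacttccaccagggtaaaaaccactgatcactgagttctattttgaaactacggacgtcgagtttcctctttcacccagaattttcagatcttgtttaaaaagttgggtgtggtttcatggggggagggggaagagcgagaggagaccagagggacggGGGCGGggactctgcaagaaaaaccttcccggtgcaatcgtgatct
FN1, chr2:215436069-215436318, minus strand: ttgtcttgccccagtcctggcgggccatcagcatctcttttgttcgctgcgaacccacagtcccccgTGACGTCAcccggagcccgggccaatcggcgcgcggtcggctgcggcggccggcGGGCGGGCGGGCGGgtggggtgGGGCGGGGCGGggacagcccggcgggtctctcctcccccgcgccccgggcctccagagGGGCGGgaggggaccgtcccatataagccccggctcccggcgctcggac
ZEB1 (the third of its windows), chr10:31318966-31319215, plus strand: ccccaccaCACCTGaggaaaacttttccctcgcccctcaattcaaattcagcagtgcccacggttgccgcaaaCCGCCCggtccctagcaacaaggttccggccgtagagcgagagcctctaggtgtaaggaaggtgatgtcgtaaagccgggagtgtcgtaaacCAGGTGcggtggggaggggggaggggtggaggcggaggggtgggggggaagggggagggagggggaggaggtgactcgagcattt

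The VIM window held 1 GC box, 46 bases before the start. The FN1 window held 1 cAMP response element, 183 bases before the start, and 6 GC boxes, 3 of them overlapping between 129 and 121 bases before the start and 2 overlapping at 107 and 102. In the ZEB1 window E-box letters began 242 and 85 bases before the start, and a GC box began 177 before it. E-box letters were in 2 of the 7 ZEB1 windows and in no window of the other 4 genes. Over all 35116 windows of the table, 17.5% held E-box letters, 1.65% the cAMP response element, 42.6% a GC box, 10.7% a TATA box, 4.20% an AP-1 site and 0.117% the grainyhead motif. These matches describe letters only.

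The libraries held 5530129 to 13774288 counts, with 99.8% to 99.9% of them in tested genes. Levels are CPM (the count of a gene divided by the library total in units of 1000000 counts), with totals scaled by TMM, a scaling that assumes that most genes do not differ between libraries. SHMT2 stood at 277 CPM in the SW480 control and 30.9 in the SW480 knockdown, and at 687 and 47.5 CPM in the SW620 pair. Both knockdown libraries therefore went with their labels (log2 fold change -3.54, SE 0.12, edgeR quasi-likelihood adjusted p = 1.06e-167). Of 12 colorectal epithelial markers, CDX1 was at 0 counts in every library and LGALS4 and GPA33 stayed under 1 CPM, while KRT8, KRT18, KRT19, EPCAM and CDX2 were present in all 4. VIL1, CDH17 and CEACAM5 were under 1 CPM in both SW480 libraries, and KRT20 in both SW620 libraries. Summed, with most of the total from the keratins, the 12 markers gave 5262 to 6904 CPM in SW480 and 9364 to 10381 CPM in SW620. Fibroblast markers, which overlap with the mesenchymal genes described here, summed to 20.5 to 21.3 CPM in SW480 and 26.9 to 31.3 CPM in SW620, with 7 of 9 under 1 CPM in every library. Endothelial markers summed to 0.732 to 2.86 CPM and leukocyte markers to 5.27 to 11.5 CPM. The part of such cells in any result was not tested.

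Levels of the 10 genes were set in order per kilobase of exon, using exon lengths of GENCODE on GRCh38. In SW480 the order was EPCAM (129 to 137 CPM per kilobase over the control and knockdown libraries), CDH1 (20.0 to 26.1), SNAI1 (6.88 to 9.62), GRHL2 (7.14 to 8.10), VIM (2.26 to 2.62), FN1 (1.41 to 1.73), ZEB1 (0.655 to 1.20), SNAI2 (0.124 to 0.300), CDH2 (0.102 to 0.117) and ZEB2 (0 to 0.00778). SNAI1 and GRHL2 overlapped, and the order of SNAI2, CDH2 and ZEB2 rests on 7 counts or fewer in a library. In SW620 the order was VIM (301 to 387 CPM per kilobase), EPCAM (221 to 230), CDH1 (20.5 to 29.2), SNAI1 (8.32 to 9.67), FN1 (2.63 to 5.11), ZEB1 (2.31 to 3.10), SNAI2 (1.66 to 1.90), GRHL2 (0.0140 to 0.0346), ZEB2 (0 to 0.00556) and CDH2 (0). FN1 and ZEB1 overlapped. Among these 10 genes, both lines thus held the epithelial transcripts EPCAM and CDH1 above the 5 transcription factors per kilobase, and SW620 held VIM above both.

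**Figure D1:**
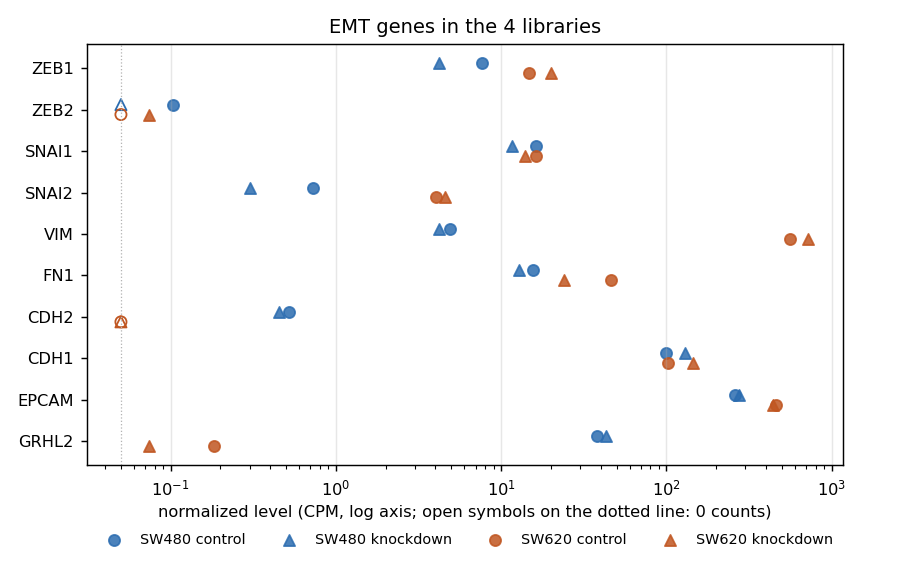
Normalized level of each EMT gene (horizontal log axis, CPM) in the SW480 control, SW480 knockdown, SW620 control and SW620 knockdown libraries, 1 symbol a library; open symbols on the dotted line mark 0 counts. VIM lies at 4.22 to 4.89 CPM in SW480 and at 563 to 723 CPM in SW620, GRHL2 lies far to the left in SW620, and the 4 symbols of CDH1, and those of SNAI1, lie close together.

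The cell lines were compared first, since they set most of the spread. Of the 8 tested genes, 5 were higher in SW620 (VIM, SNAI2, ZEB1, FN1 and EPCAM), 1 was lower (GRHL2) and 2 were not called (CDH1 and SNAI1). VIM was 137-fold higher in SW620 by the fit and EPCAM 1.69-fold higher, so a mesenchymal and an epithelial marker were higher in the same line. The test was edgeR's quasi-likelihood test with a term for treatment, two-sided, with Benjamini-Hochberg adjustment over all 14024 tested genes and a call at an adjusted p under 0.05. By that rule 32.3% of all tested genes were higher in SW620 and 31.3% were lower, so a call for a single gene is common in this comparison. These shares also go against the assumption of TMM that most genes do not differ. Each line is represented by 2 libraries that differ in treatment, and the fit leaves 1 residual degree of freedom a gene. With so few, the test took the spread almost wholly from all tested genes together. Its p-values therefore say little about a gene's own spread.

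Among the EMT transcription factors, ZEB1 was at 7.69 CPM in the SW480 control and 4.22 in the SW480 knockdown, against 14.8 in the SW620 control and 20.0 in the SW620 knockdown. Its SW620 libraries were both above its SW480 libraries (log2 fold change 1.54, SE 0.25, edgeR adjusted p = 2.68e-09). With the counts of both libraries of a line pooled, the ratio was 2.95, with a 95% interval for counting error of 2.36 to 3.71. Pooling weights each library by its depth, and the knockdown library is the deeper of the pair in SW620 but not in SW480. A gene that changes with knockdown thus shifts its pooled ratio. SNAI2 was at 7 and 2 counts in the SW480 control and knockdown and at 22 and 62 counts in the SW620 pair, or 0.728, 0.301, 4.03 and 4.60 CPM. SNAI2, which encodes SLUG, was also higher in both SW620 libraries (log2 fold change 2.97, SE 0.55, edgeR adjusted p = 2.31e-07), with a pooled ratio of 8.02 and a counting interval of 4.03 to 18.1. SNAI2 passed the filter only through its SW620 libraries, so this p-value adds little to the counts. SNAI1 was at 16.2 and 11.6 CPM in SW480 and 16.3 and 14.03 CPM in SW620. Its ranges overlapped, and the pooled ratio of 1.02 had a counting interval of 0.858 to 1.22. ZEB2 had 1 count in the SW480 control, 1 in the SW620 knockdown and 0 in the other libraries, which is under the limit of 3 counts at which a level can be told from 0 here.

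The mesenchymal markers did not move as 1 group. VIM, the intermediate filament vimentin, had 47 and 28 counts in the SW480 control and knockdown and 3074 and 9734 counts in the SW620 pair, that is 4.89, 4.22, 563 and 723 CPM. The ranges are far apart (log2 fold change 7.09, SE 0.16, edgeR adjusted p listed as 0, below what the software can represent), and the pooled ratio was 147 with a counting interval of 117 to 187. By size, VIM ranked 239 among the genes higher in SW620, so 238 tested genes had a larger difference. VIM-AS1, on the opposite strand at the VIM locus, had 10 and 9 counts in SW480 and 1183 and 3720 in SW620, and moved with VIM. Whether counting used strand was not given in the sources used here, so reads of VIM and VIM-AS1 cannot be told apart, and VIM2P is listed as a pseudogene of VIM. FN1, the matrix glycoprotein fibronectin, was at 15.7 and 12.8 CPM in SW480 and 46.5 and 23.9 CPM in SW620. Both SW620 libraries were higher (log2 fold change 1.26, SE 0.18, edgeR adjusted p = 1.33e-11). The pooled ratio was 2.10 with a counting interval of 1.80 to 2.45, beside 2.39-fold by the fit. CDH2, encoding N-cadherin, went the other way in the raw counts, with 5 and 3 counts in SW480 and 0 and 0 in SW620. Against an assumed floor of 3 counts over both SW620 libraries it was 3.10-fold higher in SW480. The 95% counting interval of the ratio reached down to 1.99. CDH2 did not pass the filter, and without the filter it was not called (edgeR adjusted p = 0.0774).

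Of the epithelial genes, CDH1, encoding E-cadherin, was at 99.7 and 129.8 CPM in SW480 and 102 and 145 CPM in SW620. Its ranges overlapped between the lines (log2 fold change 0.10, SE 0.12, edgeR adjusted p = 0.487). The pooled ratio of SW620 over SW480 was 1.19 with a counting interval of 1.12 to 1.26, beside 1.07-fold by the fit. CDH1 was higher in both knockdown libraries, so this interval cannot be read as a difference between the lines. EPCAM, an epithelial adhesion molecule, was at 260.1 and 276 CPM in SW480 and 463 and 444 CPM in SW620. Both SW620 libraries were higher (log2 fold change 0.76, SE 0.10, edgeR adjusted p = 2.42e-12). GRHL2, the activator of junction genes named above, had 364 and 285 counts in SW480 and 1 and 1 in SW620. Its levels were 37.8 and 42.9 CPM against 0.183 and 0.0742 CPM (log2 fold change -8.43, SE 0.40, edgeR adjusted p = 1.22e-97). GRHL2 passed the filter only through its SW480 libraries, so this p-value adds little to the counts. With 2 counts in SW620 the pooled ratio of SW480 over SW620 was 378, with a counting interval of 104 to 3127. GRHL2 ranked 139 by size among the genes lower in SW620. CDH1 and GRHL2 thus differed in pattern: GRHL2 was near 0 in SW620, while CDH1 was at 99.7 CPM or more in every library.

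The line differences were also read in the control libraries and in the knockdown libraries alone, with 1 library a line and no test. ZEB1 differed by 0.93 (log2) between the controls and by 2.18 between the knockdown libraries. For SNAI2 these values were 2.16 and 3.19, for VIM 6.78 and 7.35, for FN1 1.55 and 0.89, for EPCAM 0.83 and 0.69, and for GRHL2 -6.54 and -7.16. All 6 kept their sign in both pairs. SNAI1 (0.01 and 0.27) and CDH1 (0.03 and 0.16) were the smallest.

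**Figure D2:**
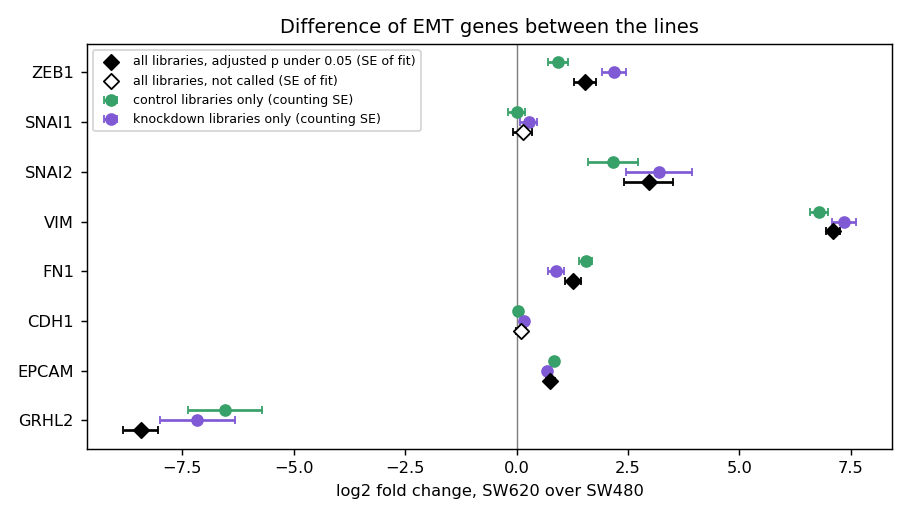
Log2 fold change of SW620 over SW480 (horizontal axis) for the 8 tested EMT genes. Diamonds give the fit over all 4 libraries with its SE, filled where the adjusted p is under 0.05; circles give the control libraries and the knockdown libraries alone with counting SE. VIM stands at 7.09 and GRHL2 at -8.43, with CDH1 and SNAI1 near 0.

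Knockdown of SHMT2 was compared with control next, in both lines together with a term for the line. CDH1 rose 1.36-fold and FN1 fell to 0.621 of its control level, and the other 6 tested genes were not called. In all tested genes 1.17% were called lower (164 genes) and 0.492% higher (69 genes). With 1 member called in each direction, the counts are too small to be read against that background. The median log2 fold change of the 8 tested genes was -0.01, and that of all tested genes was 0.01. In these bulk libraries fewer cells of a type and less RNA per cell cannot be told apart.

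CDH1 had 959 counts in the SW480 control, 862 in the SW480 knockdown, 557 in the SW620 control and 1956 in the SW620 knockdown. Both knockdown libraries were higher in CPM, at 129.8 against 99.7 CPM in SW480 and 145 against 102 in SW620. On the log2 scale CDH1 changed by 0.38 in SW480 and 0.51 in SW620 with counting SEs of 0.0676 and 0.0692, and 0.45 (SE 0.12) by the fit, with an edgeR adjusted p of 0.0210. The call was lost with DESeq2 (adjusted p = 0.279), without the filter on low counts (0.0976 by edgeR) and with a minimum of 50 counts (0.103 by edgeR). EPCAM, the other epithelial marker, had a fitted log2 fold change of 0.01 (SE 0.10), and its levels in the pairs were 260.1 and 276 CPM and 463 and 444 CPM. GRHL2 went from 37.8 to 42.9 CPM in SW480 (log2 fold change 0.18, counting SE 0.114), and in SW620 it had 1 count in each library.

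FN1 had 151 and 85 counts in SW480 and 254 and 322 in the deeper SW620 pair, where the knockdown library held 13774288 counts and the control 5530129. In CPM, FN1 went from 15.7 to 12.8 CPM in SW480 and from 46.5 to 23.9 in SW620. On the log2 scale this was -0.29 for SW480 (counting SE 0.194) and -0.95 in SW620 (counting SE 0.121), and -0.69 by the fit (SE 0.18, edgeR adjusted p = 0.0110). Most of the fall came from SW620, since without that line the value was -0.29. Without the term for the line, edgeR called neither FN1 nor CDH1. It called no gene there, SHMT2 included, so that setting cannot show whether the 2 changes are fragile. The FN1 call was also lost at a minimum of 50 counts (edgeR adjusted p = 0.176), and DESeq2 gave FN1 an unadjusted p of 0.0874 and no adjusted p. FN1 ranked 232 by size among the falls. VIM went from 4.89 to 4.22 CPM in SW480 and from 563 to 723 in SW620, and was not called (fitted log2 fold change 0.26, SE 0.13, edgeR adjusted p = 0.559). CDH2 had 5 and 3 counts in SW480 and none in SW620.

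None of the repressors was called. ZEB1 went from 7.69 to 4.22 CPM in SW480 (log2 fold change -0.83, counting SE 0.311) and from 14.8 to 20.0 CPM in SW620 (0.42, counting SE 0.181). These opposite values left a fitted log2 fold change of -0.05 (SE 0.25, edgeR adjusted p = 0.992). SNAI1 was lower in both knockdown libraries, by -0.48 in SW480 (counting SE 0.199) and -0.21 in SW620 (counting SE 0.184), and the fit gave -0.35 (SE 0.22, edgeR adjusted p = 0.724). SNAI2 rests on 7 and 2 counts in SW480, and its SW620 value was 0.18 (counting SE 0.345). ZEB2 had at most 1 count a library. With TMM scaling in edgeR, CDH1 and FN1 were the members at an unadjusted p under 0.05. With DESeq2 size factors in edgeR, VIM was under it too (unadjusted p = 0.04995), and DESeq2 called 0 of the 8 and gave 5 no adjusted p, with CDH1 alone at an unadjusted p under 0.05.

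**Figure D3:**
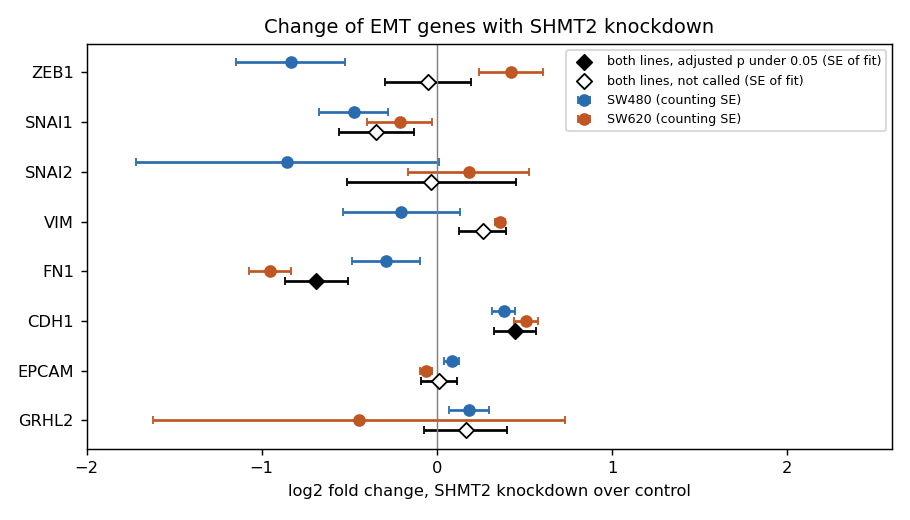
Log2 fold change of SHMT2 knockdown over control (horizontal axis) for the 8 tested EMT genes. Circles give SW480 and SW620 alone with counting SE, and diamonds the fit over both lines with its SE, filled where the adjusted p is under 0.05. FN1 (-0.69) and CDH1 (0.45) are the filled diamonds, and the SW480 and SW620 circles of ZEB1 lie on opposite sides of 0.

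Wider lists of the pathway were counted in the same fits. Genes near 0 counts in 1 line, such as FOXQ1, TWIST1, FOXA1 and VCAN, passed the filter only through the other line. Their p-values between the lines add little to their counts. Such genes enter the line counts of the lists, as they enter those of all tested genes. Of 19 EMT transcription factors 13 were tested, and SHMT2 knockdown called 1 higher and 0 lower (0 lower also at an unadjusted p under 0.05 by edgeR and by DESeq2, which gave 9 of the 13 no adjusted p). The 1 gene was HMGA2, an architectural chromatin protein that can induce SNAI1, at 242 and 487 CPM in SW480 and 35.3 and 66.8 CPM in SW620. Both knockdown libraries were higher (log2 fold change 0.97, SE 0.12, edgeR adjusted p = 7.41e-13). Among the alternatives tried, the call was lost only without the term for the line, where edgeR called no gene, SHMT2 included. HMGA2 was itself lower in SW620 (log2 fold change -2.83). Between the lines 7 of the 13 were higher in SW620 and 2 lower, beside 32.3% and 31.3% of all tested genes. FOXQ1, a forkhead factor linked to EMT, was at 0.312 and 0.452 CPM in SW480 and 159 and 173 CPM in SW620 (log2 fold change 8.75, SE 0.25). TWIST1, a basic helix-loop-helix EMT factor, had 26 and 14 counts in SW480 and 0 in both SW620 libraries. Against an assumed floor of 3 counts over both SW620 libraries it was 15.5-fold higher in SW480 (lower counting limit 12.1). By size, SNAI2, described above, came next after FOXQ1 and TWIST1.

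Of 18 epithelial transcription and splicing factors 16 were tested, and edgeR called 0 with knockdown, with 1 lower and 1 higher at an unadjusted p under 0.05. DESeq2 also called 0 and had 0 at an unadjusted p under 0.05, but gave 12 of the 16 no adjusted p. Between the lines 9 of the 16 were higher in SW620 and 6 lower, where 32.3% of all tested genes were higher and 31.3% lower. FOXA1 and FOXA2, forkhead pioneer factors of endodermal epithelia, differed in opposite directions. FOXA1 had 33 and 22 counts in SW480 and 0 in SW620 (21.3-fold higher in SW480 against the same floor, lower counting limit 16.8). FOXA2 was at 1.04 and 1.05 CPM in SW480 and 69.8 and 61.6 CPM in SW620 (log2 fold change 5.97, SE 0.24, edgeR adjusted p = 4.65e-127). OVOL1, a zinc finger factor that restrains EMT, had 249 counts over both SW480 libraries and 3 over both SW620 libraries, a ratio of 96.6 with a counting interval of 32.7 to 472. ESRP1, an epithelial splicing regulator named after its values were seen, did not pass the test between the lines (log2 fold change -0.07, edgeR adjusted p = 0.624). Thus GRHL2, FOXA1 and OVOL1 were near or at 0 counts in SW620.

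Of 43 epithelial surface and junction genes 39 were tested. With knockdown 2 were lower and 1, CDH1, was higher. The keratins KRT8 and KRT18, partners in the filaments of simple epithelia, were both lower, each with a log2 fold change of -0.34 by the fit (edgeR adjusted p = 0.00406 for KRT8 and 0.00537 for KRT18). Both keratin calls were lost with DESeq2 (adjusted p = 0.212 and 0.468) and at a minimum of 50 counts (edgeR adjusted p = 0.156 and 0.194). They were also lost without the term for the line, where edgeR called no gene. KRT8 was at 3422 and 2490 CPM in SW480 and 5228 and 4512 CPM in SW620, lower in both knockdown libraries. Both keratins have many processed pseudogenes, and how the authors' counting split such reads is not known. Between the lines 12 of the 39 were higher in SW620, a share near the 32.3% of all tested genes, and 19 were lower, beside 31.3% of all. CLDN1, a tight junction claudin, had 3 counts over both SW480 libraries and 1493 over both SW620 libraries, a ratio of 427 with a counting interval of 146 to 2075. RAB25, a GTPase of apical recycling, was at 76.3 and 92.3 CPM in SW480 and 0 and 0.371 CPM in SW620 (log2 fold change -8.31, SE 0.28). AP1M2, an epithelial clathrin adaptor subunit, had 1543 counts against 2, a ratio of SW480 over SW620 of 898 with a counting interval of 248 to 7424. CDH3, encoding P-cadherin, was lower in SW620 by a ratio of 127 (counting interval 94.2 to 175), whereas CDH1 was not called.

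Of 11 catenins and cadherin partners 9 were tested. With knockdown CTNNAL1, an alpha-catenin-like protein, was called lower (log2 fold change -0.43, edgeR adjusted p = 0.0480), with values of -0.78 in SW480 and -0.06 in SW620. CTNNAL1 was not called in any other setting tried, and 0 of the 9 were called higher, also at an unadjusted p under 0.05 and by DESeq2, which gave 2 of the 9 no adjusted p. Between the lines 3 of the 9 were higher in SW620, 3 lower and 3 not called, shares near those of all tested genes (32.3% higher and 31.3% lower). CTNNB1, encoding beta-catenin, was at 469 and 529 CPM in SW480 and 742 and 792 CPM in SW620 (log2 fold change 0.62). JUP, encoding plakoglobin, was lower in SW620 (log2 fold change -1.52), and PVRL1, encoding nectin-1, was higher (1.25). CTNND1, encoding p120-catenin, was also higher (1.06, edgeR adjusted p = 0.0377), but it had 9 to 46 counts a library and shares exons with the read-through gene TMX2-CTNND1, listed at 0 counts, so its level is uncertain. DESeq2 did not call CTNND1 (adjusted p = 0.418), and at a minimum of 50 counts it was not fitted.

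Of 55 mesenchymal surface, cytoskeleton and matrix genes 39 were tested. With knockdown 5 were lower and 3 higher, and the median log2 fold change was -0.01. Over all tested genes 1.17% were lower and 0.492% higher. DESeq2 called 0 of the 39 (2 lower and 3 higher at an unadjusted p under 0.05), with 27 of them given no adjusted p. At a minimum of 50 counts edgeR called 0 lower (7 at an unadjusted p under 0.05) and 1 higher of the 34 fitted. Without the term for the line it called 0 in either direction, also unadjusted, but there it called 0 of all tested genes. THBS1, the matrix glycoprotein thrombospondin-1, was at 48.2 and 20.5 CPM in SW480 and 125 and 93.4 CPM in SW620, lower in both knockdown libraries (log2 fold change -0.76, SE 0.14, edgeR adjusted p = 1.24e-05). LOXL3, a lysyl oxidase-like enzyme of matrix cross-linking, was also lower in both, at 24.7 and 15.8 CPM and 27.1 and 15.9 CPM (log2 fold change -0.71, edgeR adjusted p = 0.0135). At the minimum of 50 counts the edgeR adjusted p was 0.0566 for THBS1 and 0.116 for LOXL3. TNC, the matrix protein tenascin-C, was higher by the fit (log2 fold change 0.83, edgeR adjusted p = 6.22e-06). That value comes from SW620, at 504 and 907 CPM, since SW480 had 3 and 2 counts and a log2 fold change of -0.03, and DESeq2 did not call TNC (adjusted p = 1.00). FN1 was the other large change by the naming rule. The remaining called genes were COL12A1 and NT5E, lower, and ITGA5 and COL6A1, higher, named here after their values were seen. The COL12A1 value comes from SW480 (log2 fold change -0.65), since SW620 had 2 and 5 counts and a value of 0.01. NT5E had 3038 counts over both SW480 libraries and 28 over both SW620 libraries. By the main fit fibronectin (-0.69) and the alpha subunit of its receptor, ITGA5 (0.66, edgeR adjusted p = 0.000171), changed in opposite directions. Neither was called by DESeq2 or at the minimum of 50 counts.

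Between the lines 27 of these 39 genes were lower in SW620, 8 higher and 4 not called, beside 31.3% lower and 32.3% higher over all tested genes, with a median log2 fold change of -1.26 against 0.01 over all tested genes. VIM and FN1 were among the 8. TNC had 5 counts over both SW480 libraries and 14966 over both SW620 libraries, a ratio of 2571 with a counting interval of 1101 to 7918. TGFBI, a matrix protein induced by TGF-beta, had 1 count in SW480 and 4039 in SW620, a ratio of 3469 with a counting interval of 622 to 137046. VCAN, the matrix proteoglycan versican, had 3882 counts in SW480 and 8 in SW620 (ratio of SW480 over SW620 of 565, counting interval 286 to 1310). COL12A1, a fibril-associated collagen, had 2777 and 7 (ratio 462, counting interval 224 to 1150). VIM was thus higher in SW620 while 27 of the 39 genes of this list were lower there.

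**Figure D4:**
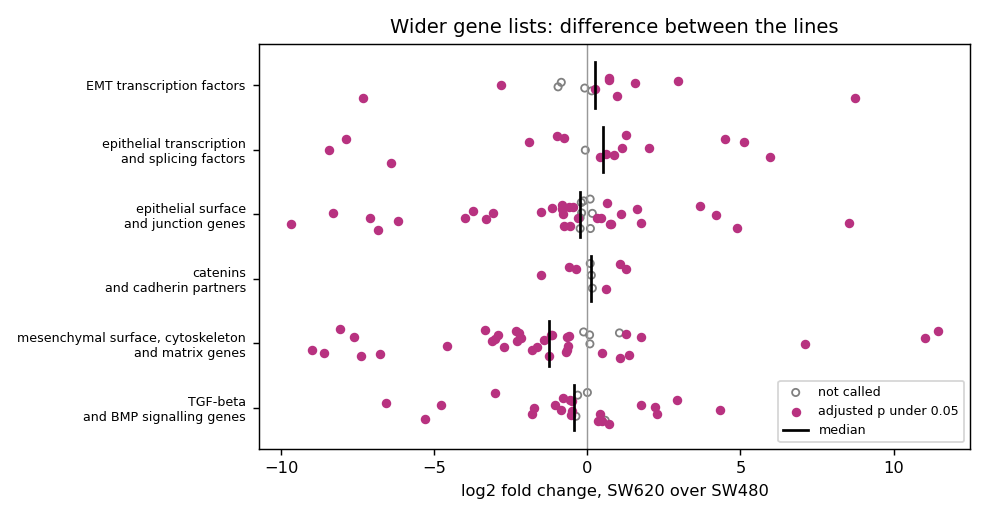
Log2 fold change of SW620 over SW480 (horizontal axis) for the tested genes of 6 lists, 1 point a gene, filled where the adjusted p is under 0.05; black bars are list medians. Points spread to both sides in every list, and the mesenchymal list has its median at -1.26 with VIM (7.09), TNC (11.02) and TGFBI (11.46) far to the right.

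Of 29 TGF-beta and BMP signalling genes 26 were tested. With knockdown 1 was called higher and 0 lower (0 lower also at an unadjusted p under 0.05 by edgeR or DESeq2, which gave 22 of the 26 no adjusted p). The 1 was ID3, an inhibitor of basic helix-loop-helix factors, at 48.4 and 90.2 CPM in SW480 and 0.732 and 0.817 CPM in SW620 (log2 fold change 0.86, SE 0.19, edgeR adjusted p = 0.00129). It rests on SW480, since the SW620 libraries had 4 and 11 counts and a log2 fold change of 0.12. The ID3 call was lost at a minimum of 50 counts (edgeR adjusted p = 0.0506), and DESeq2 gave it an unadjusted p of 0.0771 and no adjusted p. It was also lost without the term for the line, where edgeR called no gene. Between the lines 13 of the 26 were lower in SW620 and 9 higher, the latter near the 32.3% of all tested genes, with 31.3% of all lower. SMAD4, the common mediator of TGF-beta and BMP signals, was at 64.1 and 68.7 CPM in SW480 and 2.20 and 1.41 CPM in SW620 (log2 fold change -5.32, SE 0.22, edgeR adjusted p = 9.78e-123). ID3 (-6.58) and LTBP1 (-4.79), which encodes a TGF-beta binding protein of the matrix, were lower too, and BAMBI, a decoy receptor of the pathway, was higher (4.33, SE 0.18). Of 8 miR-200 and miR-205 genes, whose mature RNAs target ZEB1 and ZEB2, 7 had rows and 0 passed the filter, and libraries of long RNA do not measure mature miRNAs.

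**Figure D5:**
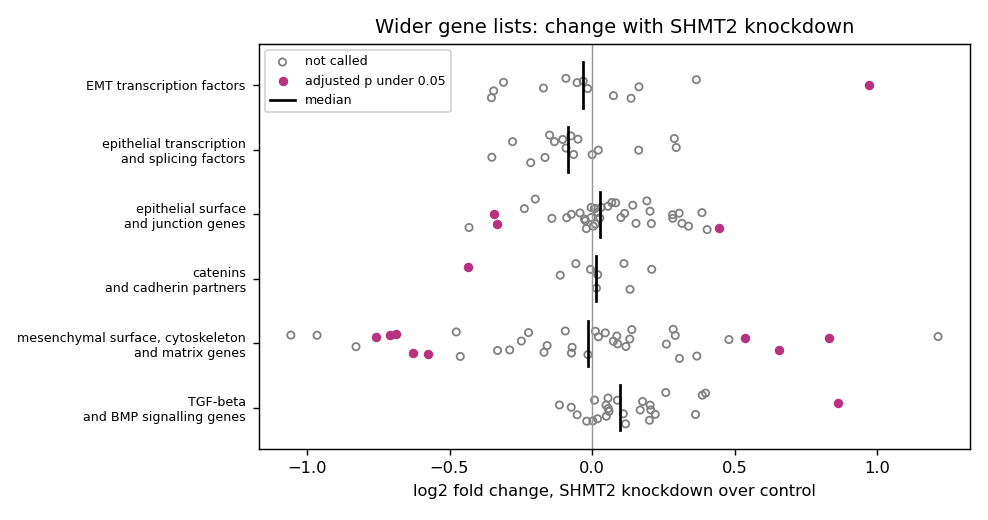
Log2 fold change of SHMT2 knockdown over control (horizontal axis) for the tested genes of the same 6 lists, 1 point a gene, filled where the adjusted p is under 0.05; black bars are list medians. List medians lie between -0.08 and 0.10, and HMGA2 (0.97), ID3 (0.86), TNC (0.83) and THBS1 (-0.76) are the filled points farthest from 0.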

How the data were processed

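The 4 libraries (SW480 and SW620, each with and without SHMT2 knockdown) were made with the Illumina TruSeq RNA kit. The authors deposited raw counts, not normalized, in a single table with 1 row a gene symbol. The submitters' processing notes name Bowtie 0.12.2 and the build hg18; the counting program, the annotation and the use of strand were not given in the sources used here. In 28 rows spreadsheet software had turned symbols into dates, and these were kept as deposited.

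A gene entered the test if 2 or more libraries held 10 counts or more of it (14024 of 26364). The tool was edgeR 4.0.16 in R 4.3.3: TMM scaling, terms for line and treatment, the quasi-likelihood test, two-sided, Benjamini-Hochberg adjustment over all tested genes. SEs of the fit are the log2 fold change over the root of the F value. DESeq2 1.42.0 was an alternative. The line pairs the libraries, since both of a pair come from the same cells. As a description, the departures of the SW480 control and knockdown libraries from the means of their conditions correlated at 0.961 over genes. With 2 lines these departures only restate the difference between the lines, so the value is no test of the pairing. Within-line log2 values used a prior count of 2, and their SEs, like all counting intervals (95%, exact binomial on pooled counts) and floors (3 counts), cover counting error only. Pooled ratios take no account of treatment. With 1 library per line and condition the knockdown effects of the lines could not be tested against each other.

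Named are the 10 members, SHMT2, and up to 4 genes a list with the largest called change in each comparison. Members and lists were chosen with earlier results of these data known. The code was tried on simulated data that gave both lines the same knockdown effect, which does not test the calls made here.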

Additional observations from a re-analysis of the deposited data

Results flagged for a closer look

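In 5 of the 8 tested EMT genes the SW480 and SW620 pairs moved in opposite directions with SHMT2 knockdown, with 1 library per line and condition, so none of these differences was tested. The same held for 6609 of all 14024 tested genes (47.1%), and a count of 5 in 8 is too small to be read against that share. The differences, as log2 fold change in SW480 minus that in SW620, were -1.26 for ZEB1 (counting SE 0.360), -1.04 for SNAI2 (counting SE 0.933), -0.56 for VIM (counting SE 0.336), 0.14 for EPCAM (counting SE 0.0560) and 0.63 for GRHL2 (counting SE 1.18). ZEB1 had the largest difference in size, from 74 and 28 counts in SW480 and 81 and 269 in SW620. SNAI2 rests on 7 and 2 counts in SW480. GRHL2 had 1 count in each SW620 library, so its sign there is set by library depth alone, and EPCAM changed by 0.08 in SW480 and -0.06 in SW620.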

How the results depend on the processing

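The line differences of the EMT genes kept their direction and their side of the threshold under every alternative that gave a test (5 higher and 1 lower, or 4 higher with a minimum of 50 counts, where SNAI2 was not fitted). DESeq2 called 2826 genes lower and 2680 higher in SW620, against 4394 and 4532. The knockdown calls depended on the processing. The line paired the libraries. With no replicate block (treatment alone) edgeR called 0 members lower and 0 higher (0 and 0 at an unadjusted p under 0.05). Of all genes it called 0 lower and 0 higher (17 and 1 unadjusted), with SHMT2 itself not called. That setting thus cannot show whether the change of a member is fragile. DESeq2 called 0 members lower and 0 higher, with 5 of 8 given no adjusted p, and 22 of all genes lower and 6 higher. Without a filter 0 members were called higher, and 137 and 46 of all genes were lower and higher. With a minimum of 50 counts edgeR called 0 members lower and 0 higher (1 and 1 unadjusted), and 54 and 15 of all genes. With a fold of at least 1.5, 0 members were called higher, and 79 genes lower and 37 higher. Fitted knockdown values changed sign for ZEB1 (0.11), SNAI2 (0.071) and EPCAM (-0.0061) with no replicate block, for EPCAM (-0.0016) without a filter, and for TNC without SW620 (-0.029, against 0.85 without SW480). Leaving out a line also turned the sign for VIM without SW620 (-0.20), and without SW480 for GRHL2 (-0.44), ZEB1 (0.42), SNAI2 (0.18) and EPCAM (-0.06). A value with 1 line left out is that of the other line alone, so its sign is that line's own. The cause of the other sign changes, and of the difference between the lines, was not tested. Leaving out SW620 or SW480 left -0.29 or -0.95 for FN1 and 0.38 or 0.51 for CDH1, with no test. Scaling by DESeq2 size factors in edgeR kept both member calls. The common dispersion was 0.00819 with the line and 0.561 without it. With a minimum of 50 counts the CDH1 value stayed at 0.45, and its SE went from 0.12 to 0.11. Its unadjusted edgeR p still rose from 0.000248 to 0.00115. FN1 stayed at -0.69 (SE 0.18 and 0.19), and its unadjusted edgeR p rose from 0.000114 to 0.00291. Both calls were thus lost without a smaller fitted change. At 1 residual degree of freedom, small changes in members at a few counts, such as SNAI2, CDH2 and ZEB2, were not detectable at this depth.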

Other observations

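Other markers that the labels' description as colorectal cells would call on differed between the lines as well. VIL1, encoding the brush border protein villin, had 2 and 1 counts in SW480 and 2029 and 5105 in SW620. LUM, encoding the matrix proteoglycan lumican and counted here among fibroblast markers, had 0 counts in both SW480 libraries and 107 and 313 in SW620, while COL1A1 had 203 and 130 in SW480 and 35 and 86 in SW620. These values were looked up after the marker lists had been summed and were not tested.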
